A study of Mus musculus with 6 samples.

Results

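Neonatal mouse ventricular cardiomyocytes were cultured with cyclopamine, with GANT61 or with the solvent DMSO, and their polyadenylated RNA was sequenced. Cyclopamine is a plant alkaloid that binds Smoothened, the membrane protein that carries the Hedgehog signal across the cell surface. GANT61 is a small molecule that acts further down, on the GLI transcription factors. Here the cyclopamine and GANT61 columns of the deposited count table formed a single arm, each weighing the same, and were set against the DMSO column, so that the question was which genes lay on the same side of DMSO under both inhibitors. The arm held 2 of the 3 columns, and 15576 of the 55487 genes in the table were expressed highly enough to be compared.

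The inhibitor groups were cells given 5 µg/ml cyclopamine and cells given 3 µM GANT61, and the comparison group received DMSO. The doses are in different units and were not matched. In all groups the cells came from the ventricles of wild-type mouse pups on postnatal day 1 or 2, after a magnetic sort that removed cells carrying CD90, a surface protein of fibroblasts. They were plated on fibronectin at 70000 cells per well in medium with serum, kept for 12 h, and then exposed for 48 h. The labels give 2 samples per group and 6 in all, but the count table has 1 column per group with no replicate number, and how many animals or wells stand behind a column is not given. There was therefore no replicate of any condition, and the spread between the cyclopamine and GANT61 columns was the only error available.

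The totals were 38966515 counts for cyclopamine, 35461530 for GANT61 and 36661845 for DMSO. Reads from mitochondrial genes made up 6.42% and 5.02% of the counts in the inhibitor columns and 5.21% in the DMSO column. A list of 16 cardiomyocyte markers summed to 85688 and 77672 CPM (counts scaled to a common library size) under cyclopamine and GANT61, against 90808 CPM under DMSO, and none of them passed the size rule defined below. Fibroblast markers (18 genes) summed to 2900 and 2617 CPM, against 3490 CPM under DMSO. Vim and Fn1 weighed heavily in that sum, at 1007 and 867 CPM under DMSO, while Tcf21 was at 4.54 CPM there. Thy1, the gene of CD90, was at 73.8 and 33.7 CPM under cyclopamine and GANT61, against 82.9 CPM under DMSO. RNA of these markers was thus still counted after the sort. Endothelial markers (18 genes) summed to 217 and 194 CPM, against 235 CPM, and 18 macrophage and leukocyte markers, 8 of which passed the expression filter, to 17.0 and 9.22 CPM, against 11.8 CPM, with Cd163 at 0. Hba-a1, Hba-a2, Hbb-bs, Hbb-bt, Alas2 and Slc4a1, genes of red blood cells, were at 0 in the summed list of erythroid markers, none of which reached the expression filter.

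Several gene systems bear on what follows. Cells hold their cholesterol steady through SREBP2, a membrane-bound transcription factor that is released from the endoplasmic reticulum when sterols are scarce and switches on the enzymes of cholesterol synthesis, while INSIG proteins hold it back when sterols are plentiful. The LXR receptors work in the other direction: they sense oxidised sterols and switch on transporters that export cholesterol. Genes of mitosis are switched on late in the cell cycle through CCAAT boxes, to which NF-Y binds, and through a short element called CHR, bound by complexes of B-MYB, FOXM1 or the repressive DREAM complex, whereas genes of DNA replication are mostly driven by E2F. Mouse ventricular cardiomyocytes largely leave the cell cycle in the days after birth.

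Of the 15576 genes, 5423 (34.8%) were higher in both inhibitor columns than in the DMSO column, 5654 (36.3%) were lower in both, and 4499 (28.9%) lay on opposite sides. The cyclopamine and GANT61 differences share the 1 DMSO column, and a deviation of that column moves both of them to the same side, so the number on the same side cannot be told apart from such a deviation. A gene was described as higher or lower by size if each inhibitor column differed from DMSO by at least 1.5-fold in the same direction and the exact 95% interval of each difference, which covers counting error only, left out 0. By this size rule 326 genes were higher in both inhibitor columns (2.09% of genes compared) and 753 were lower (4.83%), while 18 passed it on opposite sides. The size rule does not remove the effect of the shared column, which can carry both differences past 1.5-fold together, and no value without a difference was available to set the numbers against. At 2-fold the numbers were 151 higher, 386 lower and 6 opposite, and at 4-fold 22 higher, 34 lower and 0 opposite. The median log2 difference of the arm over all genes was -0.009, and 90% of genes lay between -1.07 and 0.73.

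With a single column per group, a test over the arm has 1 residual degree of freedom and rests on the assumption that the DMSO column varies as the inhibitor columns do. The quasi-likelihood test of edgeR called 0% of genes at an adjusted p below 0.05. Its smallest adjusted p was 0.0814, shared by 6 genes: Insig1, Msmo1, Synpo2, Abca1, mt-Atp8 and Top2a. At an unadjusted p below 0.05 it gave 977 genes (6.27%), 414 higher and 563 lower in the arm. limma-voom also called 0 genes, with 1013 at an unadjusted p below 0.05, while DESeq2 called 142 of the 12556 genes to which it gave an adjusted p (1.13%), 62 higher and 80 lower, all of which passed the size rule too. The genes described below are thus higher or lower by size, and none passed the edgeR test.

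**Figure D1:**
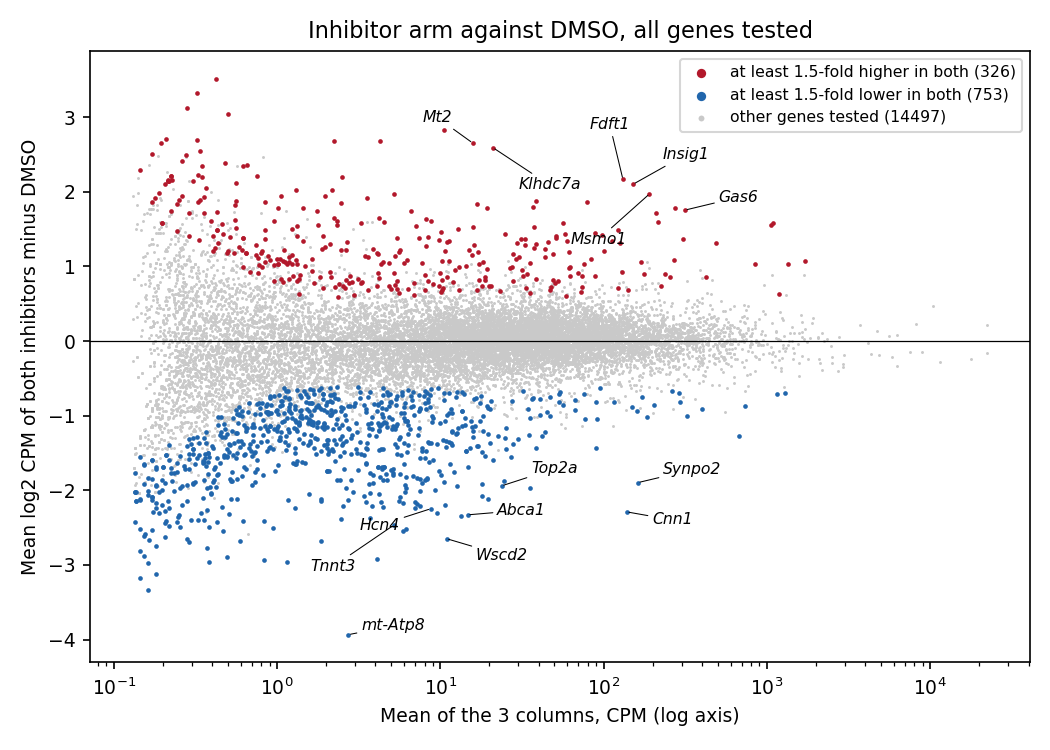
Each point is a gene, with its mean level over the 3 columns in CPM on a log axis and, on the y axis, the mean log2 CPM of both inhibitors minus DMSO; colours mark the 326 genes higher and the 753 lower by size in both inhibitor columns. The labelled sterol genes Insig1, Fdft1 and Msmo1 lie near 2 at high levels, and mt-Atp8 is the lowest point, at -3.93.

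Of the 46 gene lists described here, cholesterol synthesis had the largest share of members on the high side: 19 of the 21 enzymes compared were higher by size in both inhibitor columns, against 2.09% of all genes, and none was lower. Their summed level was 3986 CPM with cyclopamine and 3078 CPM with GANT61, against 1261 CPM with DMSO. The median log2 difference of the arm over the list was 1.34 (1.47 for cyclopamine and 1.31 for GANT61), next to -0.009 over all genes. DESeq2 called 16 of the 21 higher, and edgeR gave 19 of them an unadjusted p below 0.05.

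The higher levels ran from the first steps of the pathway to the last. Acat2, which joins a pair of acetyl units, was at 78.0 CPM with cyclopamine and 71.5 CPM with GANT61, against 29.3 CPM with DMSO. Hmgcs1, the synthase of the next step, was at 1642 CPM with cyclopamine and 1154 CPM with GANT61, against 459.8 CPM with DMSO. For both of these enzymes both inhibitor columns exceeded DMSO more than 2-fold. Further along the isoprenoid branch, Idi1 was at 122 and 86.2 CPM in the cyclopamine and GANT61 columns, against 28 CPM in the DMSO column (log2 differences of 2.12 and 1.62), and Fdps, which makes farnesyl pyrophosphate, was counted 208 and 144 times with cyclopamine and GANT61, against 44 times with DMSO (log2 differences of 2.13 and 1.71). Mvk, Pmvk and Mvd, the kinases and the decarboxylase that act before Idi1, were 0.83 to 1.37 higher on the log2 scale in every inhibitor column. Ggps1, which diverts the intermediates towards protein prenylation and not towards sterols, had 1400 and 1279 counts under the inhibitors and 1385 under DMSO, and was not higher.

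In the steps committed to sterols, Fdft1, squalene synthase, was at 206 CPM with cyclopamine and 149 CPM with GANT61, against 38.9 CPM with DMSO, an arm difference of 2.17 ± 0.24 log2 units, where ± is the distance of each inhibitor column from the mean of the arm (edgeR adjusted p = 0.0919). Msmo1, which removes methyl groups from the sterol ring, was at 272 and 235 CPM in the cyclopamine and GANT61 columns, against 64.5 CPM in the DMSO column, a difference of 1.97 ± 0.11 (adjusted p = 0.0814 by edgeR). Cyp51, the lanosterol demethylase, was at 416 CPM with cyclopamine and 302 CPM with GANT61, against 103 CPM with DMSO (log2 differences of 2.01 and 1.55). All 3 were far above DMSO in both inhibitor columns, and cyclopamine was higher than GANT61. Sqle, the squalene epoxidase, and Lss, which folds squalene epoxide into lanosterol, differed from DMSO by 1.49 ± 0.08 and 1.58 ± 0.07. Dhcr7, a late enzyme of the pathway, was higher by 1.23 ± 0.24, and Nsdhl, Hsd17b7, Sc5d and Tm7sf2 also passed the size rule. Ebp, the sterol isomerase, had 925 and 630 counts under cyclopamine and GANT61 and 600 under DMSO, and did not pass. Cyclopamine stood above GANT61 by more than counting error in 16 of the 21 enzymes and below it in 1, while for 4 the interval of the difference held 0.

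The regulators around the pathway divided. Insig1, the retention protein whose own gene is an SREBP target, was at 212 CPM with cyclopamine and 196 CPM with GANT61, against 47.5 CPM with DMSO, a difference of 2.1 ± 0.06 (edgeR adjusted p = 0.0814), and DESeq2 gave it an adjusted p of 2.3e-14. Stard4, a carrier of cholesterol inside the cell, was higher by 1.17 ± 0.06. Srebf2, the gene of SREBP2, had log2 differences of 0.83 and 0.57 and missed the size rule in the GANT61 column. Srebf1 and Insig2 lay on opposite sides of DMSO in the inhibitor columns, at 0.18 and -0.24 for Srebf1 and -0.05 and 0.05 for Insig2. Of the 20 genes for sterol sensing and uptake, 4 were higher and 1 was lower by size, against 2.09% and 4.83% of all genes. The lower one was Rnf145, a ubiquitin ligase of the endoplasmic reticulum, at 41.4 and 34.8 CPM in the cyclopamine and GANT61 columns, against 63.9 CPM in the DMSO column.

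The exporters Abca1 and Abcg1 lay on the other side of DMSO. Abca1, which loads cholesterol onto apolipoprotein A-I, was counted 209 times with cyclopamine and 257 times with GANT61, against 1163 times with DMSO. Its log2 differences were -2.53 (95% counting interval -2.76 to -2.32) and -2.13 (-2.34 to -1.94), and its edgeR adjusted p was 0.0814. Abcg1, its partner in export to HDL, was at 2.45 CPM with cyclopamine and 2.68 CPM with GANT61, against 8.39 CPM with DMSO (log2 differences of -1.76 and -1.63). Both transporters were lower in each inhibitor column, by more than 3-fold. The other 16 of the 18 genes in the LXR list did not pass the size rule, which 4.83% of all genes passed on the low side. Abca7 and Abcg4 were lower in both columns without passing. Abca3 lay on opposite sides, and Apoe was above DMSO in both, at 0.36 and 0.11. The receptors themselves had nearly equal counts, with 1417 and 1328 under the inhibitors against 1415 under DMSO for Nr1h2 and 105 and 98 against 82 for Nr1h3.

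**Figure D2:**
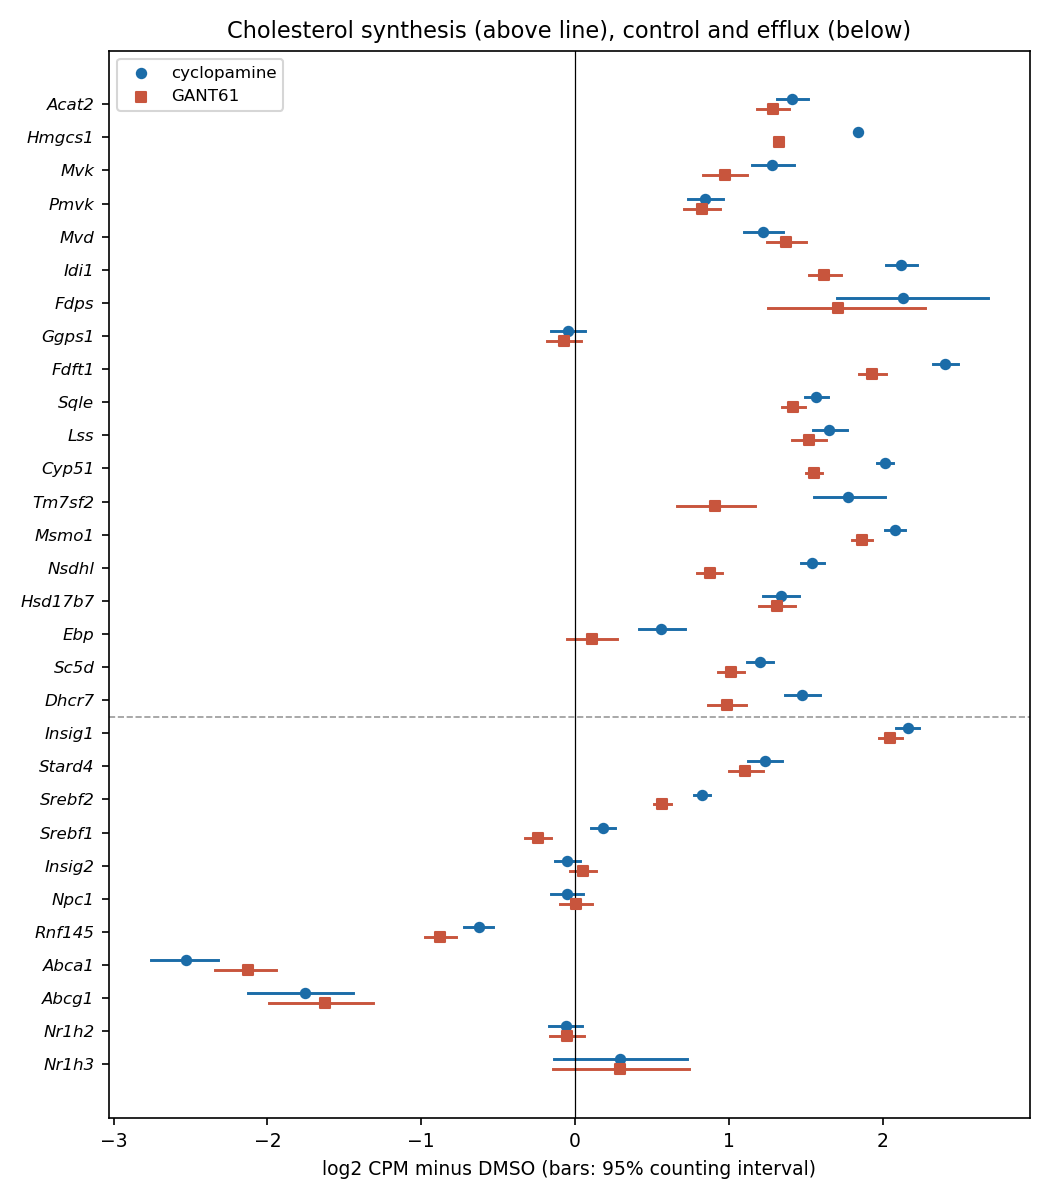
Log2 CPM minus DMSO with 95% counting intervals (bars), 1 row for each of the genes shown, for cyclopamine (circles) and GANT61 (squares); enzymes of cholesterol synthesis are above the dashed line and genes of sterol control and export below it. For Fdft1, Msmo1 and Insig1 both points lie right of 0, for Abca1 and Abcg1 both lie left of it, and for Ggps1 both intervals hold 0.

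Promoters of these genes were read for the letters of known elements, because most of the enzymes lay on the same side of DMSO. The windows were the 250 bases before each start annotated by RefSeq (GRCm38.p6), searched on both strands. Of the 21 enzymes 16 had such a window. The CCAAT box (CCAAT) was found in 15 of them (93.8%), against 40.3% of the 10985 compared genes with a window. A strict form of the sterol element (TCACNCCAC) was found in 1 of the 16 (6.25%), against 1.28% of compared genes. None of the searched words contains another, and a match describes letters only. The 250 bases before the start are shown for Msmo1, the enzyme with the smallest edgeR adjusted p of the list, for Hmgcs1, the one with the sterol element, and for Mvk, with 5 CCAAT boxes. Capitals mark CCAAT or its reverse complement ATTGG and, in Hmgcs1, also the sterol element TCACCCCAC.
Msmo1 (chr8:64733579-64733828, minus strand): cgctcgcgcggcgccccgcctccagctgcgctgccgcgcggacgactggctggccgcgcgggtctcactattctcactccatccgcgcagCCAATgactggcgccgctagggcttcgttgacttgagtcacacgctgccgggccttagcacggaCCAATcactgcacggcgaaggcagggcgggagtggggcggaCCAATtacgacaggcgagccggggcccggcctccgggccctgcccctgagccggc
Hmgcs1 (chr13:119690101-119690350, plus strand): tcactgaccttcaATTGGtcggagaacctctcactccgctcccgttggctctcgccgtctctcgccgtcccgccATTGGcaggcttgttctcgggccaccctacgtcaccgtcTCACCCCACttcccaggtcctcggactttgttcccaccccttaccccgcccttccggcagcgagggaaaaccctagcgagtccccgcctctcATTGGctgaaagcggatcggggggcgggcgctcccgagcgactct
Mvk (chr5:114444019-114444268, plus strand): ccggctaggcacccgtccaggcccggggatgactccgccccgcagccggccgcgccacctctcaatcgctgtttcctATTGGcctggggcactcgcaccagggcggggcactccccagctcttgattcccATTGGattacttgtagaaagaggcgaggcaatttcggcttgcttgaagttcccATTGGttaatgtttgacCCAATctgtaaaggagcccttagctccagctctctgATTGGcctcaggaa
In Msmo1 the boxes begin 160, 96 and 55 bases before the start, and in Hmgcs1 the sterol element begins 137 bases before it, between CCAAT boxes at 176 and 45 bases.

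Genes of fatty acid synthesis and desaturation lay mostly on the same side as those of cholesterol. Of 24 compared, 9 were higher by size, against 2.09% of all genes, and none was lower, against 4.83%, and the list's median arm difference was 0.52. Scd1, the desaturase that makes oleate, was at 319 CPM with cyclopamine and 230.3 CPM with GANT61, against 82.4 CPM with DMSO (log2 differences of 1.95 and 1.48), and Scd2, its relative, was at 1977 and 1298 CPM in the cyclopamine and GANT61 columns, against 779.8 CPM in the DMSO column (log2 differences of 1.34 and 0.74). Both inhibitor columns were above DMSO, cyclopamine more so. Fads2, which desaturates polyunsaturated fatty acids, differed by 1.2 ± 0.31. The carbon supply was higher as well: Acly, which splits citrate, by 0.93 ± 0.02, Acss2, which activates acetate, by 0.91 ± 0.06, Acaca, the acetyl-CoA carboxylase, by 0.82 ± 0.08, and Fasn, the synthase, by 0.85 ± 0.09. Of the 50-base windows of Acaca 52.6% also occur in an overlapping gene model, so its count is less certain. Lpin1, a phosphatidate phosphatase, was at 69.5 and 77.6 CPM in the cyclopamine and GANT61 columns, against 27.0 CPM in the DMSO column, and Aacs, which activates acetoacetate for lipid synthesis, was at 63.8 CPM with cyclopamine and 65.5 CPM with GANT61, against 24.4 CPM with DMSO. For both of these genes cyclopamine and GANT61 lay close together. The acyl-CoA synthetases Acsl3 and Acsl4 and the ethanolamine phospholipid enzyme Pcyt2 stood in no list and were picked after their values were seen, with arm differences of 1.37 ± 0.08, 0.87 ± 0.06 and 0.90 ± 0.09.

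On the low side the clearest group was mitosis. Of 69 genes of the G2 and M phases 65 were lower by size in both inhibitor columns and none was higher, against 4.83% of all genes lower. Their summed level was 427 CPM with cyclopamine and 336 CPM with GANT61, against 1097 CPM with DMSO, and the median log2 difference was -1.77 (-1.46 for cyclopamine and -2.04 for GANT61). DESeq2 called 36 of them lower, and edgeR gave 66 an unadjusted p below 0.05. In RNA from whole cultures, fewer dividing cells and less of these RNAs per dividing cell cannot be told apart.

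The cyclins and kinases that start mitosis were among the lowest. Ccnb1, cyclin B1, was at 7.52 CPM with cyclopamine and 4.11 CPM with GANT61, against 28.5 CPM with DMSO, Ccnb2 at 3.07 and 2.18 CPM in the cyclopamine and GANT61 columns, against 11.6 CPM in the DMSO column, and Cdk1, the kinase they activate, at 9.63 and 7.49 CPM in the cyclopamine and GANT61 columns, against 27.4 CPM in the DMSO column. All were below DMSO in both columns, and GANT61 was lower than cyclopamine. Of the 50-base windows of Ccnb1 42.1% also occur in another annotated gene, and likewise 45.9% of those of Acat2 and 21.3% of those of Idi1 above. Plk1, a kinase of spindle assembly, had log2 differences of -1.85 and -2.52, and Aurka and Aurkb, the Aurora kinases, had arm differences of -1.80 ± 0.36 and -1.69 ± 0.17. Foxm1, a transcription factor of these genes, was at 5.13 CPM with cyclopamine and 3.83 CPM with GANT61, against 15.9 CPM with DMSO.

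Genes of chromosome structure and the spindle followed. Top2a, which untangles the replicated DNA, was counted 523 and 390 times with cyclopamine and GANT61, against 1725 times with DMSO, a difference of -1.94 ± 0.16 (edgeR adjusted p = 0.0814). Cenpf, a kinetochore protein, was at 5.62 CPM with cyclopamine and 4.13 CPM with GANT61, against 22.2 CPM with DMSO, and Cdca8, a subunit of the chromosomal passenger complex, was at 3.85 and 2.91 CPM in the cyclopamine and GANT61 columns, against 15.7 CPM in the DMSO column. Birc5, the survivin gene of the same complex, and Dlgap5, a spindle protein, had arm differences of -2.23 ± 0.35 and -2.54 ± 0.35. The genes needed to leave mitosis, Cdc20 and Ube2c, which direct the destruction of cyclins, differed by -1.80 ± 0.22 and -2.30 ± 0.52, and Anln, needed for cytokinesis, by -1.55 ± 0.14. Mki67, whose protein Ki-67 is a common marker of dividing cells, was at 18.2 CPM with cyclopamine and 8.83 CPM with GANT61, against 46.7 CPM with DMSO (log2 differences of -1.36 and -2.40). In 50 of the 69 genes GANT61 lay further below DMSO than cyclopamine by more than counting error. The 4 that did not pass the size rule were Cenpa, Kif18a, Smc4 and Gtse1. Of these only Gtse1, a p53 regulator, lay on opposite sides, at 10.0 and 21.5 CPM in the cyclopamine and GANT61 columns, against 13.3 CPM in the DMSO column.

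CCAAT boxes were present in 37 of the 55 mitotic genes with a promoter window (67.3%, against 40.3% of compared genes). The CHR letters (TTTGAA or TTCGAA) were present in 19 of them (34.5%, against 14.6%). Both also occurred in the other lists: CCAAT was found in 65.6% of the p53 targets with a window and in 62.8% of the S phase genes, and the CHR letters in 25% of the p53 targets and 20.9% of the S phase genes. The bases before the start are shown for Ccnb2, Cdc20 and Top2a, which carry both. Capitals mark CCAAT boxes and CHR letters on either strand.
Ccnb2 (chr9:70421555-70421804, minus strand): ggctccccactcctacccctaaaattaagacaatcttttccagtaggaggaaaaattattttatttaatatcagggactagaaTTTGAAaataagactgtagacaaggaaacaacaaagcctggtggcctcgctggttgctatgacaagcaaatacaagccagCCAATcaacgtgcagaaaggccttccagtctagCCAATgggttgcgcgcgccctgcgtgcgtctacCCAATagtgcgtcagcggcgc
Cdc20 (chr4:118437344-118437593, minus strand): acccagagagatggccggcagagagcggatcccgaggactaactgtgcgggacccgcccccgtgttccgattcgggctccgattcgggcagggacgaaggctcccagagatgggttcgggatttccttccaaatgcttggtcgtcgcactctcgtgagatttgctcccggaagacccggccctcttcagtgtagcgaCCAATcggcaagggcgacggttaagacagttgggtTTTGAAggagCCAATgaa
Top2a (chr11:99024190-99024439, minus strand): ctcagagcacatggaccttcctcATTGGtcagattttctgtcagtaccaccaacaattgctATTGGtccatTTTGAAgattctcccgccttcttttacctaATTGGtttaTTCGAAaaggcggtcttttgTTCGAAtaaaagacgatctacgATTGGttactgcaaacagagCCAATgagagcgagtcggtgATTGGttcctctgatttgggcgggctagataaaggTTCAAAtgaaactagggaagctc
In Ccnb2 the CCAAT boxes begin 87, 54 and 21 bases before the start, and in Cdc20 the CHR letters begin 18 bases before it.

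Replication genes were lower to a smaller extent. Of 54 S phase genes 31 were lower by size (4.83% of all genes) and none higher, 53 lay below DMSO in both columns (36.3% of all genes), and the median difference was -0.88. DESeq2 called 5 of them: Mcm5, Mcm6, Mcm7, Rrm2 and Uhrf1. Mcm5, a subunit of the replicative helicase, was at 8.70 CPM with cyclopamine and 5.08 CPM with GANT61, against 22.5 CPM with DMSO (log2 differences of -1.37 and -2.13). Rrm2, the regulated subunit of ribonucleotide reductase, was at 11.7 and 11.3 CPM in the cyclopamine and GANT61 columns, against 33.6 CPM in the DMSO column, whereas Rrm1, its more stable partner, differed by -0.71 ± 0.02. Uhrf1, which brings the maintenance DNA methyltransferase to new DNA, was at 10.5 CPM with cyclopamine and 11.3 CPM with GANT61, against 28.9 CPM with DMSO, with nearly equal values under both inhibitors. Ccne2, cyclin E2, and Clspn, a checkpoint adaptor of the replication fork, had arm differences of -1.68 ± 0.40 and -1.72 ± 0.20. The E2F letters (TTTCCCGC or TTTGGCGC) were found in 7 of 43 S phase genes with a window (16.3%, against 2.82% of compared genes). The 250 bases before the start of Mcm5 are shown, with the match (GCGCCAAA on the printed strand) in capitals, as an example of a gene called by DESeq2.
Mcm5 (chr8:75109259-75109508, plus strand): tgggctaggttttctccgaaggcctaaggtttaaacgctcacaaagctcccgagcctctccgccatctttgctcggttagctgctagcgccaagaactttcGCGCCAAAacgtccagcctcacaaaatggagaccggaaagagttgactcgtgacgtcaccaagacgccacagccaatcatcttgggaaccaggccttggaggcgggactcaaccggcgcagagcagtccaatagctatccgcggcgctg
Genes of homologous recombination, which repair breaks at replication forks, were lower by size in 15 of 28 cases, against 4.83% of all genes, with a median of -0.78 and no DESeq2 call. Brca1, which promotes this repair, had 95 and 72 counts under the inhibitors against 224 under DMSO. Fancd2, of the crosslink repair pathway, had 58 and 48 counts against 177. Rad54l, a DNA translocase of the pathway, had 81 counts with cyclopamine and 13 with GANT61, against 181 with DMSO, the widest gap between the inhibitors among these 3 genes.

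Targets of p53 lay mostly above DMSO, with GANT61 ahead of cyclopamine. Of 40 compared, 33 were above DMSO in both columns (34.8% of all genes), 10 were higher by size (2.09% of all genes) and 1 was lower, a share below the 4.83% of all genes, and the median arm difference was 0.66 (0.39 for cyclopamine and 0.86 for GANT61). Cdkn1a, the inhibitor of cyclin-dependent kinases p21, was at 445 CPM with cyclopamine and 779 CPM with GANT61, against 237 CPM with DMSO, a difference of 1.31 ± 0.40 (edgeR adjusted p = 0.555). Gdf15, a stress-induced secreted factor, was at 27.9 and 74.7 CPM in the cyclopamine and GANT61 columns, against 12.4 CPM in the DMSO column, and Btg2, an antiproliferative gene, was at 114 and 205 CPM in the cyclopamine and GANT61 columns, against 61.1 CPM in the DMSO column. For each the GANT61 level was well above the cyclopamine level, and both were above DMSO. Eda2r, a receptor of the TNF receptor family, Polk, a lesion-bypass DNA polymerase, and Ddit4l, an inhibitor of mTORC1 signalling, had arm differences of 1.34 ± 0.35, 1.24 ± 0.46 and 1.64 ± 0.50. DESeq2 called those 3 with Cdkn1a and Btg2 as higher. Trp53inp1, which promotes p53-dependent cell death, differed by 0.90 ± 0.04, with close values under both inhibitors. The lower gene was Ckap2, a spindle protein, at 5.0 CPM with cyclopamine and 4.83 CPM with GANT61, against 13.4 CPM with DMSO. Mdm2, whose product degrades p53, had log2 differences of 0.34 and 1.06 and missed the size rule with cyclopamine, and Trp53 itself had 1456 and 1667 counts against 1297. Over the list GANT61 exceeded cyclopamine by more than counting error in 29 of the 40 genes. Among 22 genes of cell-cycle exit, 4 were higher by size (Cdkn1a, Btg2, Cdkn2b and Gadd45a), against 2.09% of all genes. In the same list 1 was lower, Cdkn2c, a share near the 4.83% of all genes.

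**Figure D3:**
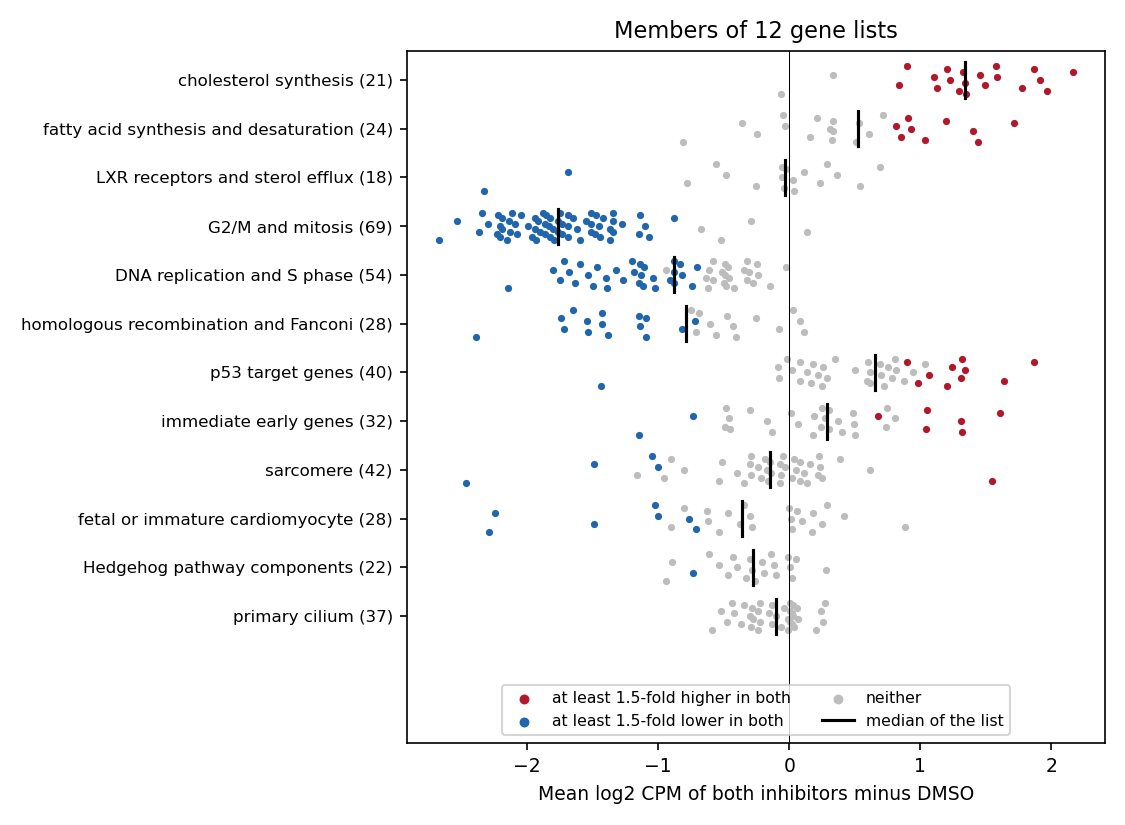
Each point is a gene of 1 of 12 lists (compared members in brackets), at the mean log2 CPM of both inhibitors minus DMSO; red and blue mark genes higher and lower by size in both columns, and black bars the list medians. The median is 1.34 for cholesterol synthesis, -1.77 for G2/M and mitosis and 0.66 for p53 targets, and no coloured point falls among the 37 primary cilium genes.

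Most genes of the contractile apparatus were close to DMSO. Of 42 sarcomere genes 1 was higher and 4 were lower by size, against 2.09% and 4.83% of all genes. Myom2, the M-band protein of fast and adult heart muscle, was at 1159 CPM with cyclopamine and 1575 CPM with GANT61, against 461 CPM with DMSO (1.55 ± 0.22, edgeR adjusted p = 0.122). The lower ones were isoforms that belong to other muscles or earlier stages. Tnnt3, the fast skeletal troponin T, was at 2.34 and 1.76 CPM in the cyclopamine and GANT61 columns, against 11.5 CPM in the DMSO column, and Tnnt1, the slow skeletal form, was at 18.9 CPM with cyclopamine and 5.64 CPM with GANT61, against 29.2 CPM with DMSO. Tpm2, a tropomyosin, was at 68.5 and 64.9 CPM in the cyclopamine and GANT61 columns, against 138 CPM in the DMSO column, and Myl4, the atrial and embryonic light chain, was at 238 and 248 CPM in the cyclopamine and GANT61 columns, against 486 CPM in the DMSO column. Both inhibitor columns lay below DMSO for all 4, and for Tpm2 and Myl4 they nearly coincided. The major cardiac genes did not pass: Tnnt2 had 315072 and 229504 counts under cyclopamine and GANT61 against 294394 under DMSO, and Actc1 588530 and 647688 against 721568. The myosin heavy chains had log2 differences of -0.05 and -0.27 for Myh6 and 0.19 and 0.31 for Myh7. Some genes were well below DMSO with 1 inhibitor only. With cyclopamine and GANT61 the differences were -0.09 and -1.72 for Tnni1, -0.50 and -1.82 for Tcap, -0.54 and -1.37 for Fhl2, and -1.16 and -0.44 for Acta1.

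Among 36 genes of cardiomyocyte maturation 4 were higher by size (Myom2, Mb, Ppara and Lpl), against 2.09% of all genes, and none was lower, with a median of 0.09. Mb, myoglobin, was at 1077 CPM with cyclopamine and 969 CPM with GANT61, against 501 CPM with DMSO (1.03 ± 0.08). Lpl, which frees fatty acids from circulating fat, was at 1364 and 1341 CPM in the cyclopamine and GANT61 columns, against 872 CPM in the DMSO column, and Ppara, a receptor that drives fatty acid oxidation, was at 13.6 CPM with cyclopamine and 17.9 CPM with GANT61, against 7.82 CPM with DMSO. All 3 were above DMSO in both inhibitor columns, and Ppara was higher with GANT61 than with cyclopamine. Among 28 genes of fetal or immature cardiomyocytes 7 were lower by size, against 4.83% of all genes, and none was higher, with a median of -0.36. Cnn1, calponin of smooth muscle and embryonic heart, was at 82.9 and 42.8 CPM in the cyclopamine and GANT61 columns, against 291 CPM in the DMSO column (log2 differences of -1.81 and -2.77). Acta2, smooth muscle actin, was at 943 CPM with cyclopamine and 969 CPM with GANT61, against 1568 CPM with DMSO, and H19, an imprinted noncoding RNA, was at 29.2 and 30.8 CPM in the cyclopamine and GANT61 columns, against 51.0 CPM in the DMSO column. Acta2 and H19 had close values under the inhibitors, while Cnn1 was lower with GANT61 than with cyclopamine. The other 4 were Myl4, Tnnt1, Hcn4 and Cacna1h, and DESeq2 called Cnn1 and Myl4.

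Among 44 genes of calcium handling and ion channels 3 were higher and 5 were lower by size, against 2.09% and 4.83% of all genes. Kcnip2, the subunit that shapes the transient outward potassium current, was at 11.1 CPM with cyclopamine and 11.5 CPM with GANT61, against 3.67 CPM with DMSO (1.61 ± 0.03) and was the only one of them called by DESeq2. Kcnj5, of the acetylcholine-gated potassium channel, differed by 0.72 ± 0.08, and Cacna1d, a pacemaker calcium channel, had 37 and 19 counts under the inhibitors and 6 under DMSO. Hcn4, the pacemaker channel, was on the other side, at 7.37 and 1.70 CPM in the cyclopamine and GANT61 columns, against 17.1 CPM in the DMSO column, as was Casq1, the skeletal form of calsequestrin, at 649.5 and 308 CPM in the cyclopamine and GANT61 columns, against 1079 CPM in the DMSO column. For both, GANT61 was lower than cyclopamine. Cacna1h, Gjc1, a conduction connexin, and Atp2b4, a calcium pump, had arm differences of -1.02 ± 0.15, -0.95 ± 0.35 and -0.69 ± 0.01. Tbx3, a transcription factor of the conduction system, was the 1 lower gene of 26 cardiac transcription factors, a share near the 4.83% of all genes, at 4.01 CPM with cyclopamine and 3.41 CPM with GANT61, against 7.66 CPM with DMSO. Of 12 atrial and conduction markers 3 were lower (Myl4, Hcn4 and Tbx3), against 4.83% of all genes. The summed level of all 13 in the list was 11359 and 11189 CPM under the inhibitors against 13974 CPM under DMSO. Most of each sum was Nppa, which did not pass the size rule, at 10763.5 and 10712.2 CPM against 13057 CPM.

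Synpo2, an actin-bundling protein of the Z-disc and of smooth muscle, was counted 3703 and 2674 times with cyclopamine and GANT61, against 11631 times with DMSO, a difference of -1.90 ± 0.18 (edgeR adjusted p = 0.0814). Csrp1, a LIM protein of smooth muscle, was at 337 and 285 CPM in the cyclopamine and GANT61 columns, against 581 CPM in the DMSO column, and Pdlim7, a scaffold on actin filaments, was at 234 CPM with cyclopamine and 237 CPM with GANT61, against 416 CPM with DMSO. These genes stood in no list and were picked after their values were seen. All 3 were lower in both inhibitor columns. Of 12 smooth muscle and pericyte markers compared 3 were lower by size (Cnn1, Acta2 and Lmod1), against 4.83% of all genes. Tagln, Smtn, Cspg4 and Des were lower in both columns without passing. Notch3 was above DMSO in both, at 0.52 and 1.21, and Myh11, Pdgfrb, Kcnj8 and Abcc9 lay on opposite sides. All 13 of the list, with 1 below the expression filter, summed to 4716 and 4285 CPM under the inhibitors, against 6216 CPM under DMSO. Des, also in the sarcomere list, held 2794 and 2562 CPM of these sums, against 3403 CPM under DMSO. The part of smooth muscle cells in the lower Cnn1, Acta2 and Synpo2 was not tested.

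The extracellular matrix gave smaller counts. Of 24 collagen chains 3 were lower by size, against 4.83% of all genes (Col27a1, Col15a1 and Col6a3), with a list median of -0.44. Col6a3, of the microfibrillar collagen VI, was at 13.3 CPM with cyclopamine and 9.02 CPM with GANT61, against 25.3 CPM with DMSO. Of 36 matrix, protease and crosslinking genes 6 were lower and 1 was higher, against 4.83% and 2.09% of all genes. Eln, elastin, was at 44.1 and 27.5 CPM in the cyclopamine and GANT61 columns, against 69.5 CPM in the DMSO column, Emilin1, of elastic fibres, was at 14.3 and 11.4 CPM in the cyclopamine and GANT61 columns, against 26.8 CPM in the DMSO column, and Tnc, tenascin C, was at 80.9 CPM with cyclopamine and 80.8 CPM with GANT61, against 125 CPM with DMSO. Tnc had nearly the same level under both inhibitors, and Eln was lower under GANT61. Loxl2, a collagen crosslinker, differed by -0.75 ± 0.02, although 45.8% of its windows also occur in an overlapping gene model. The higher gene was Dcn, decorin, a small proteoglycan, at 10.7 and 12.8 CPM in the cyclopamine and GANT61 columns, against 6.22 CPM in the DMSO column, which was also the only 1 of 17 fibroblast markers to pass.

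A pair of metallothioneins, small zinc-binding proteins induced by metals, was higher by size. Mt2 was counted 1174 times with cyclopamine and 483 times with GANT61, against 117 times with DMSO (log2 differences of 3.24 and 2.07). Mt1 had 2251 and 1384 counts against 503 (log2 differences of 2.1 and 1.5). Both were above DMSO in each column and higher with cyclopamine. Slc30a2, a zinc exporter, was at the other side with 127 and 53 counts against 293. The other 6 compared genes of that list did not pass the size rule. Of all genes 2.09% passed it on the high side and 4.83% on the low side.

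Stress and immediate early genes were higher in part. Of 32 immediate early genes 6 were higher by size and 2 were lower, against 2.09% and 4.83% of all genes. Egr1, a zinc-finger factor induced by growth signals, was at 179.7 CPM with cyclopamine and 230.0 CPM with GANT61, against 97.8 CPM with DMSO (1.05 ± 0.18), Atf3, a stress-induced factor, was at 26.7 and 47.8 CPM in the cyclopamine and GANT61 columns, against 14.3 CPM in the DMSO column, and Myc was at 35.0 and 51.0 CPM in the cyclopamine and GANT61 columns, against 20.5 CPM in the DMSO column. Each was above DMSO in both columns and higher with GANT61. Klf6, Nr4a3 and Btg2 were the other higher members, and the lower ones, Arc and Nr4a2, had fewer than 50 counts in every column. The integrated stress response list, of 34 genes, had 4 on the high side (Atf3, Ddit3, Cebpb and Gdf15) and none on the low side. The shares of all genes were 2.09% and 4.83%. Atf3 also stands among the immediate early genes and Gdf15 among the p53 targets. Ddit3, the CHOP factor, had 638 and 920 counts under the inhibitors against 331 under DMSO. None of 34 NRF2 targets passed in either direction. Of 34 heat shock and chaperone genes 1 was higher, a share near the 2.09% of all genes. It was Hspa1b, at 3.80 and 3.91 CPM against 2.20 CPM. Ccl2, a chemokine, was the 1 higher gene among 24 inflammatory genes, against 2.09% of all genes. Ccl2 was at 12.2 CPM with cyclopamine and 12.5 CPM with GANT61, against 4.78 CPM with DMSO, and DESeq2 called it.

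Among 37 lysosome and autophagy genes 4 were higher by size, against 2.09% of all genes, and none lower. Gpnmb, a glycoprotein of lysosomes under lipid load, was at 45.3 and 33.7 CPM in the cyclopamine and GANT61 columns, against 15.1 CPM in the DMSO column and Fnip2 at 21 and 42.5 CPM in the cyclopamine and GANT61 columns, against 11 CPM in the DMSO column, and both were called by DESeq2. Flcn, the partner of Fnip2 in the folliculin complex, was at 59.2 CPM with cyclopamine and 89.8 CPM with GANT61, against 36.7 CPM with DMSO, and Rragd, a GTPase that the complex acts on, was at 137 and 144 CPM in the cyclopamine and GANT61 columns, against 86.1 CPM in the DMSO column. Rragd was nearly equal under both inhibitors, whereas Flcn and Fnip2 were higher with GANT61 and Gpnmb with cyclopamine.

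Of 36 genes of fatty acid oxidation and its control 3 were higher (Ppara, Acsl1 and Plin5) and 1 was lower by size, against 2.09% and 4.83% of all genes; the lower one was Ucp2, a mitochondrial carrier. Acsl1, the main acyl-CoA synthetase of heart, was at 255 CPM with cyclopamine and 347 CPM with GANT61, against 164 CPM with DMSO. Of 33 glycolytic genes only Slc16a3, the lactate exporter MCT4, passed, on the low side, a share below the 4.83% of all genes. Slc16a3 was at 65.1 and 49.6 CPM in the cyclopamine and GANT61 columns, against 153 CPM in the DMSO column, and DESeq2 called it lower. Both inhibitor columns were well below DMSO, GANT61 the lower.

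In the Hedgehog pathway, which the compounds are known to block, some ligands and targets were near 0 while others were readily counted. Gli1, the GLI factor that is itself a Hedgehog target, had 0, 0 and 7 counts with cyclopamine, GANT61 and DMSO, and Shh had 0, 0 and 8, while Hhip, an inhibitory target, had 0 in each column. A count of 0 allows up to 3 counts, so these values differ by few reads. Gli2 had 11 and 14 counts under the inhibitors against 16 under DMSO, and Gli3 had 187 and 150 against 205. Ptch1, the receptor and a target of the pathway, was at 35.6 CPM with cyclopamine and 32.6 CPM with GANT61, against 39.0 CPM with DMSO (log2 differences of -0.13 and -0.26), and Smo at 17.5 and 12.7 CPM in the cyclopamine and GANT61 columns, against 21.7 CPM in the DMSO column (log2 differences of -0.31 and -0.77). Neither passed the size rule. Of the 22 Hedgehog genes compared, 16 were lower in both columns and 3 higher in both, against 36.3% and 34.8% of all genes. The median was -0.27. By size 1 was lower, a share near the 4.83% of all genes. It was Gpr161, a receptor in the cilium that restrains the pathway, at 4.74 and 4.13 CPM in the cyclopamine and GANT61 columns, against 7.39 CPM in the DMSO column. Cdon, a co-receptor, had differences of -0.45 and -1.33 and missed the rule with cyclopamine. Of 17 reported GLI targets, Foxm1 and Snai1 were lower and Cdkn1a was higher by size, against 4.83% and 2.09% of all genes. Foxm1 also stands in the mitosis list and Cdkn1a among the p53 targets. None of 37 genes of the primary cilium passed.

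Other signalling lists held few members past the rule, for which the shares over all genes were 2.09% higher and 4.83% lower. Of 29 Wnt genes 4 were lower (Rspo3, Nkd2, Sfrp2 and Apcdd1) and 2 higher (Wif1 and Dkk3), both secreted modulators, at 10.7 CPM with cyclopamine and 8.49 CPM with GANT61, against 5.13 CPM with DMSO for Wif1 and 19.5 and 24.8 CPM in the cyclopamine and GANT61 columns, against 10.5 CPM in the DMSO column for Dkk3. Of 19 Notch genes 3 were lower, the targets Hey1, Heyl and Nrarp, with 3, 35 and 29 counts under cyclopamine, 1, 20 and 19 under GANT61 and 17, 70 and 47 under DMSO. Of 31 TGF-beta and BMP genes 1 was lower, Bmp5, and 1 higher, Grem1, a BMP antagonist. F3, tissue factor, was the 1 higher of 26 YAP and TEAD targets, a share near the 2.09% of all genes, at 11.3 and 16.2 CPM in the cyclopamine and GANT61 columns, against 5.38 CPM in the DMSO column. No gene of 15 in the ErbB list passed.

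Genes outside the lists made up 248 of the 326 higher and 594 of the 753 lower by size. Of all 15576 genes compared, 1057 stood in any list. Genes outside the lists were thus a smaller share of those that passed by size than of all genes. Klhdc7a, a Kelch-domain protein of little-known function, was at 17.2 CPM with cyclopamine and 41.6 CPM with GANT61, against 4.40 CPM with DMSO (log2 differences of 1.95 and 3.23), and Gas6, the ligand of the TAM receptor kinases, was at 333 and 494 CPM in the cyclopamine and GANT61 columns, against 120.1 CPM in the DMSO column (log2 differences of 1.47 and 2.04). Wscd2, a sulfotransferase-like membrane protein, was on the low side, at 5.99 CPM with cyclopamine and 2.46 CPM with GANT61, against 24.4 CPM with DMSO (log2 differences of -2.02 and -3.28). In all 3 the GANT61 column was further from DMSO. Kif1a, a kinesin of axonal transport, Pde1c, a calmodulin-dependent phosphodiesterase, Robo1, a guidance receptor, and Lamb3, a laminin chain, were picked after their values were seen. Kif1a and Pde1c were higher by 1.39 ± 0.13 and 1.52 ± 0.30, and Robo1 and Lamb3 had differences of -1.89 ± 0.36 and -1.22 ± 0.06. Protein-coding genes made up 78.5% of the higher and 81.3% of the lower genes, against 84.3% of all compared, and long noncoding RNAs 9.51% and 12.0%, against 6.95%. A mean of at least 5 CPM was reached by 46.0% of the higher and 29.5% of the lower genes, against 65.1% of all compared.

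**Figure D4:**
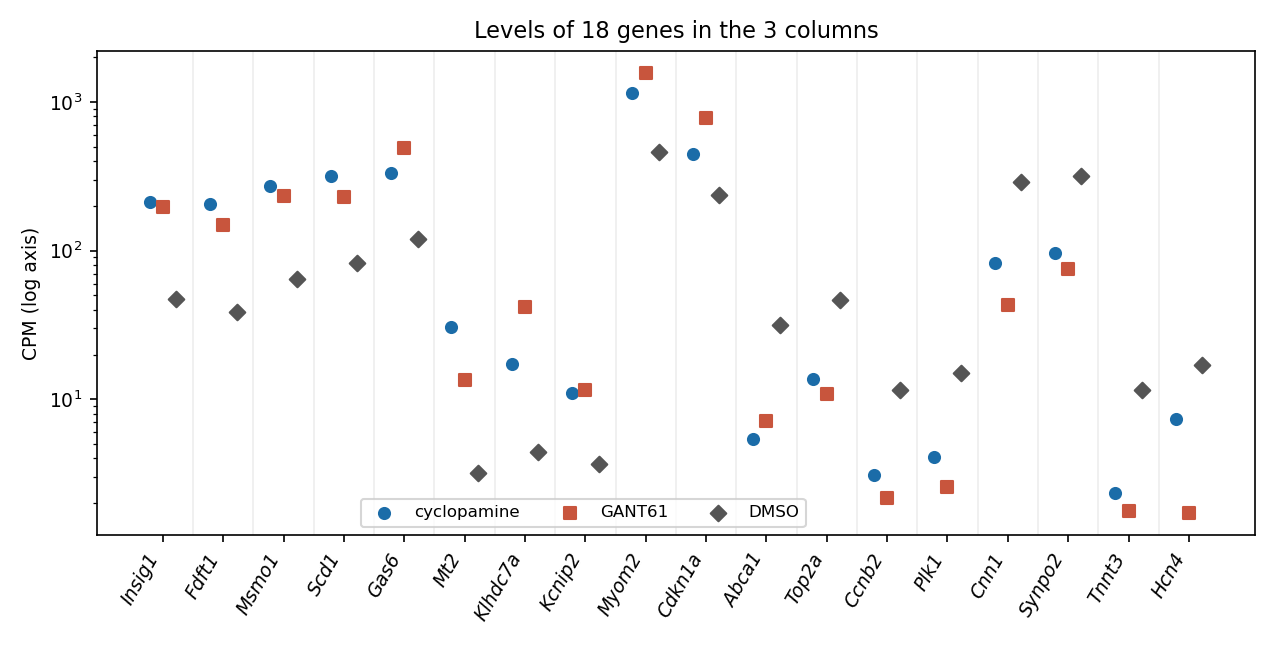
Levels in CPM on a log axis of 18 genes, each with cyclopamine (circle), GANT61 (square) and DMSO (diamond), 1 value per column. Insig1, Mt2, Cdkn1a and Myom2 stand higher in both inhibitor columns than in DMSO, and Abca1, Top2a, Synpo2 and Cnn1 lower.

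Several genes of the mitochondrial chromosome passed the size rule and carry limits of their own. The large mitochondrial ribosomal RNA, mt-Rnr2, was at 2283 CPM with cyclopamine and 1885 CPM with GANT61, against 991 CPM with DMSO, and mt-Tt, a transfer RNA, was at 16.5 and 16.1 CPM in the cyclopamine and GANT61 columns, against 5.71 CPM in the DMSO column. The polyadenylated libraries sample such RNAs only in part. mt-Atp8 had 21 and 12 counts under the inhibitors, against 270 under DMSO (edgeR adjusted p = 0.0814). It overlaps mt-Atp6 on the same strand, so reads of the shared stretch may be dropped or split. mt-Co3 and mt-Nd4l were also lower by size, and 99.9% and 98.8% of their windows also occur in other annotated genes. Gm2606, a processed pseudogene, had 498 and 591 counts against 74.

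Markers of the outer heart layer were mostly higher with GANT61 alone. Of 17 epicardial and mesothelial markers 3 were higher by size in both columns (Msln, Lrrn4 and Upk1b), against 2.09% of all genes. The list, with all 18 members, summed to 251 CPM with cyclopamine and 382 CPM with GANT61, against 281 CPM with DMSO. Its median difference was -0.04 for cyclopamine and 1.70 for GANT61. Msln, mesothelin, had 213 and 579 counts under the inhibitors against 131 under DMSO. Among 7 neural and Schwann cell markers Mbp was higher and S100b lower by size, against 2.09% and 4.83% of all genes. The sum of all 12 in the list was 236 and 238 CPM against 232 CPM. The part of such cells in the results above was not tested.

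The inhibitors did not lie equally far from DMSO. Cyclopamine alone passed the size rule with 638 genes higher (4.1%) and 1133 lower (7.27%), and GANT61 alone with 1308 higher (8.4%) and 2070 lower (13.3%). Of the 326 genes higher in both, GANT61 was further from DMSO in 212, and beyond counting error in 116, whereas cyclopamine was further beyond counting error in 46. Of the 753 lower genes GANT61 was further in 553, and beyond counting error in 258, and cyclopamine in 22. The interval of the difference between the inhibitors held 0 for 164 of the higher and 473 of the lower genes, which does not show that they were equal. The 18 genes that passed on opposite sides included Astn2, a neuronal adhesion-related protein, at 37.6 CPM with cyclopamine and 9.64 CPM with GANT61, against 23.7 CPM with DMSO, and Dhrs7c, a dehydrogenase of the sarcoplasmic reticulum, at 26.4 and 7.66 CPM in the cyclopamine and GANT61 columns, against 16.1 CPM in the DMSO column. For both, cyclopamine stood above DMSO and GANT61 below it. Lyz2, the macrophage lysozyme, was likewise higher with cyclopamine and lower with GANT61, at 12.1 and 4.55 CPM in the cyclopamine and GANT61 columns, against 7.44 CPM in the DMSO column. Igfbp4, an IGF-binding protein, was the reverse, at 3.80 CPM with cyclopamine and 10.9 CPM with GANT61, against 5.76 CPM with DMSO.

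**Figure D5:**
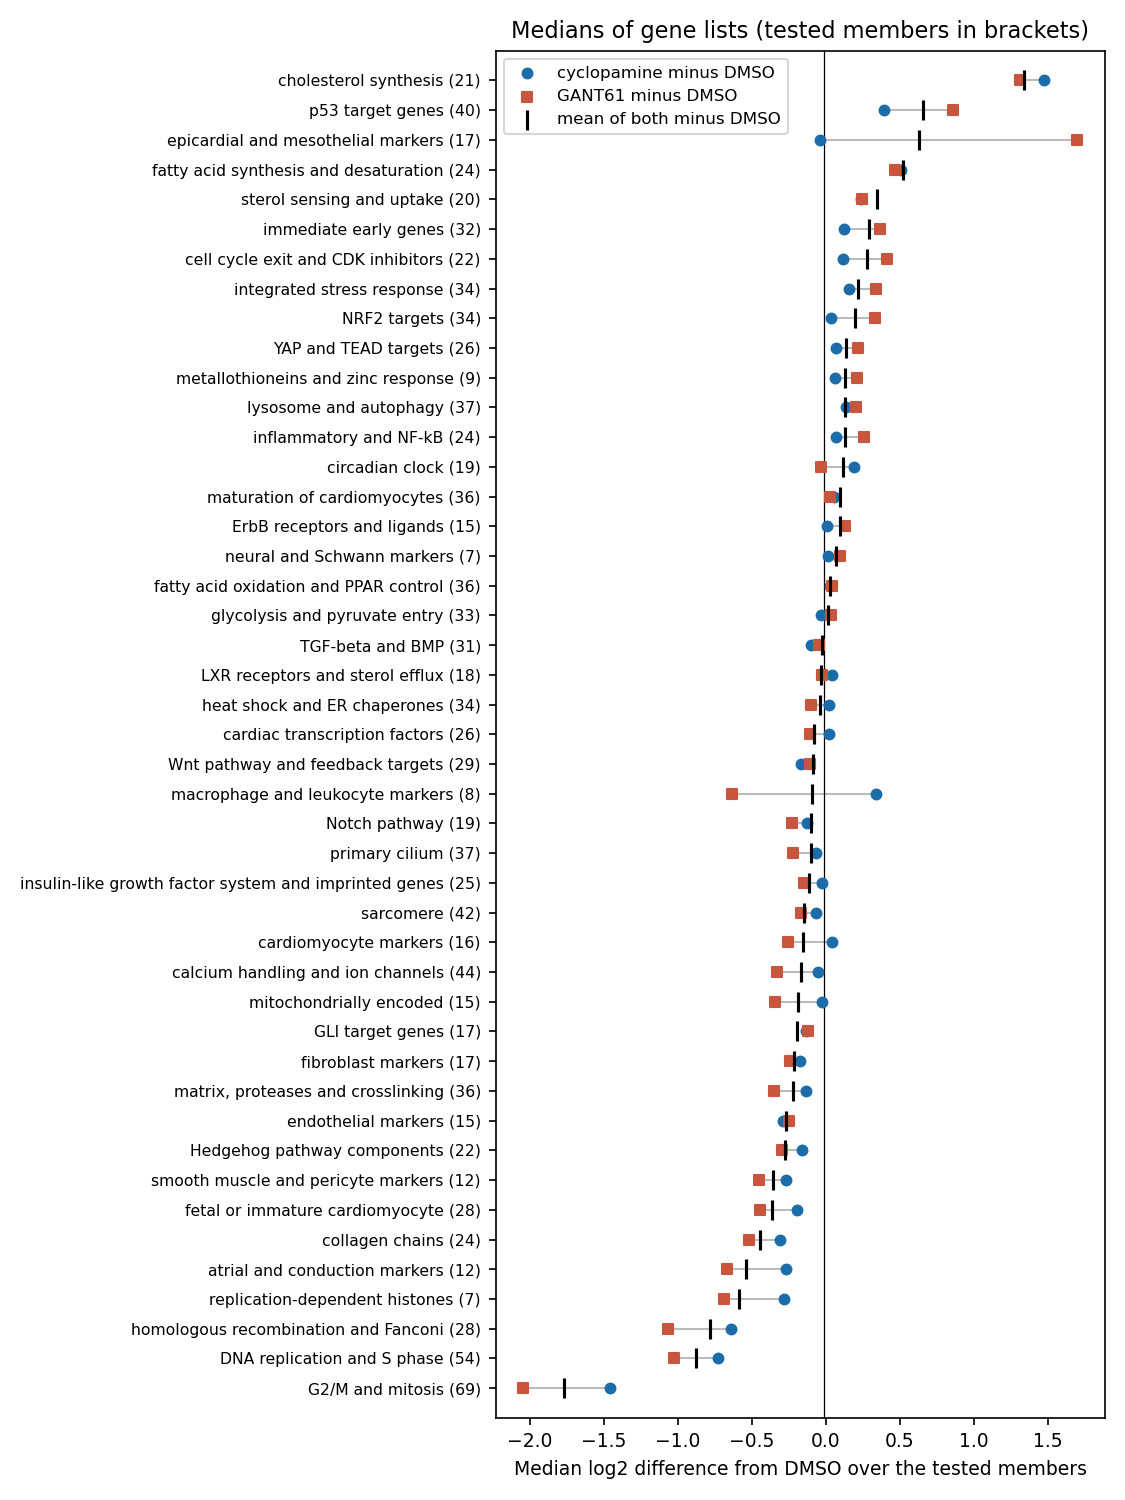
Median log2 difference from DMSO over the compared members of each of the 45 lists with at least 5 such members, for cyclopamine (circles), GANT61 (squares) and the arm (bars); the vertical line is the arm median of all genes. Cholesterol synthesis has the highest cyclopamine median, at 1.47, G2/M and mitosis the lowest of both, at -1.46 and -2.04, and for 8 lists the inhibitor medians lie on opposite sides of 0.

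The authors' deposited table of gene lists counted 6612 genes as higher and 6461 as lower, which the values show to be a 1.2-fold limit on the mean of the raw inhibitor counts against DMSO. Of the 6612, 2330 (35.2%) had 0 counts in the DMSO column and 2815 (42.6%) had fewer than 10 counts over the 3 columns together, and 3253 (49.2%) passed the expression filter used here. Of the 6461, 1198 (18.5%) had 0 in both inhibitor columns, 2351 (36.4%) had fewer than 10 counts over the 3 columns, and 3548 (54.9%) passed the filter. After scaling for depth, 2805 (42.4%) of the higher and 3316 (51.3%) of the lower genes passed the filter and lay on that side of DMSO in both inhibitor columns. All 326 genes higher and 753 lower by size were in the matching list, as 4.93% and 11.7% of it. Both rules read the same counts and the size rule is the stricter, so this overlap followed from the rules and is no separate evidence.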

How the data were processed

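Per the labels, polyadenylated RNA was made into stranded TruSeq libraries. The submitters' processing notes name Trimmomatic 0.33, FastQC, HISAT2 2.1.0, featureCounts and the mouse build GRCm38. The sources used here give neither the annotation nor the strand setting, nor whether samples were pooled. The values are raw read counts per gene in 3 columns, as the authors deposited them, and no column of the table was left unused. A further table of the authors' deposited gene lists gives raw counts for genes past a 1.2-fold limit.

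Genes were filtered with filterByExpr, scaled with TMM (factors 0.986 for cyclopamine, 1.01 for GANT61 and 1.004 for DMSO) and put on a log2 CPM scale (prior count 2). The arm is the mean of both inhibitor values. The robust quasi-likelihood test of edgeR 4.0.16 was run on all 15576 genes at once, with cyclopamine and GANT61 as the 2 columns of the arm and a Benjamini-Hochberg threshold of 0.05. The common dispersion was 0.0355, a coefficient of variation of 0.188, and it comes from the difference between the inhibitors alone. Its p-values therefore measure the spread between these columns and not between cultures. DESeq2 1.42.0, limma-voom (limma 3.58.1), other scalings, filters, prior counts and fold limits and leaving out each inhibitor column were the alternatives. R 4.3.3, Python 3.11.15, NumPy 2.4.6, SciPy 1.17.1, pandas 2.3.3 and Matplotlib 3.10.9 were used, and the fit was tested on simulated data.

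Counting intervals are exact conditional 95% intervals of the ratio of a pair of counts. Reads without molecular identifiers are not independent molecules, so these intervals and the floor of 3 counts cover counting error only. Gene symbols come from the table, and 55227 of the 55487 IDs matched GENCODE M21, which also gave overlaps and how much of the longest transcript, in 50-base windows, another gene also holds. Promoters are those of RefSeq (GRCm38.p6).

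The naming rule took the 15 highest and 15 lowest genes by the smaller of the inhibitor differences with a mean of at least 5 CPM, up to 4 members of each of the 46 lists, up to 4 genes on opposite sides, and 6 Hedgehog genes. Since edgeR called none, its part for called list members took those that passed the size rule. Further members of lists were named after their values were seen. The comparison, its genes and the lists were chosen with earlier results of these data known. Cells treated with the Smoothened agonist named in the protocol were not analysed here.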

Additional observations from a re-analysis of the deposited data

How the results depend on the processing

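No paired analysis was possible because the count columns carry no replicate number. Called genes numbered 0 with edgeR and also with limma-voom, without the robust option, with DESeq2 size factors and with the stricter filter of 5 CPM in 2 columns. A 1.5-fold limit added to the edgeR calls could only leave 0. Called genes numbered 142 with DESeq2, 18 when only library size was scaled (9 higher and 9 lower) and 482 with no expression filter. The cause was not tested. All 18 and 364 of the 482 passed the size rule. The genes higher by size numbered 326 with the settings reported, 140 with the stricter filter, 972 at 1.2-fold and 151 at 2-fold. Leaving out each inhibitor column in turn, which leaves no residual degree of freedom and so a value with no test, gave 638 without GANT61 and 1308 without cyclopamine. The genes lower by size numbered 753 as reported, 201 with the stricter filter, 1480 at 1.2-fold, 386 at 2-fold, and 1133 to 2070 on leaving out a column. Under the stricter filter 3718 genes were lower in both columns and 2727 lay on opposite sides, and with no filter 7675 lay on opposite sides; the filter changes how many genes are compared. Leaving out a column replaces the arm of a named gene by the other inhibitor's difference and moved it by up to 1.19 log2 units (median 0.26). Under the other 6 alternatives, 666 values of the 121 named genes stayed within 1 SD of the pair of inhibitor values and 11 moved further, while 49 genes had no value under the stricter filter. For the medians of 44 lists the numbers were 245 and 19. No gene past the size rule changed sign under those 6. This followed largely from the 1.5-fold limit on the same side in both columns and is no separate evidence. Small medians did change sign: those of GLI targets and of mitochondrially encoded genes were 0.06 and 0.14 under the stricter filter, and those of the LXR list and of cardiac transcription factors were 0.04 and 0.02 without GANT61. Depth limits genes with few counts, such as Gli1, Shh and Hey1, whose differences rest on at most 17 reads in a column.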

Other observations

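Some genes were detected on only 1 side of the comparison. In all, 11 genes had at least 10 counts in the DMSO column and 0 in both inhibitor columns. They included Rgcc, a regulator of the cell cycle, with 18 counts under DMSO, Snord34, a small nucleolar RNA, with 16, and Mlc1, a membrane protein of astrocytes, with 14. A further 3 had 0 counts in the DMSO column and at least 10 in each inhibitor column: A930016O22Rik with 15 and 16 counts under cyclopamine and GANT61, Arhgap27os1 with 13 and 33, and 4930556M19Rik with 18 and 18. A count of 0 allows up to 3 counts, so these genes were not shown to be absent. They were picked after their values were seen, and no test was run on them.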
